A study of Mus musculus with 12 samples.

Results

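The comparison described here is the response of mouse liver to CDDO-Im, taken as an average over livers with and without hepatocyte Keap1. It set the 6 arrays of CDDO-Im-treated mice against the 6 arrays of vehicle-treated mice, with genotype as an additive term, so that each genotype weighed equally. All 12 arrays of the series entered it. Gene expression was measured in liver total RNA from male C57BL/6J mice, 9 weeks old, with 1 Affymetrix array per mouse and 3 mice per group. CKO mice carried Albumin-Cre with 1 floxed and 1 null Keap1 allele, and WT mice, their genetic controls, carried Albumin-Cre with 1 floxed and 1 wild-type allele. Albumin-Cre acts in hepatocytes, so the other liver cells of CKO mice kept their floxed allele beside the null allele, and hepatocytes of WT mice can have lost their floxed allele. Mice of each genotype were gavaged once with 30 umol/kg CDDO-Im or with the vehicle of DMSO, Cremophor-EL and PBS, and livers were collected 6 h later.

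Keap1 is the adaptor of a ubiquitin ligase that marks the transcription factor Nrf2 (Nfe2l2) for degradation, and electrophiles such as CDDO-Im, a synthetic oleanane triterpenoid, modify its cysteines and so let Nrf2 accumulate. Nrf2 then induces genes for glutathione synthesis, quinone reduction, NADPH supply and export of conjugates through the antioxidant response element. In CKO hepatocytes this step is already released, so a change seen in CKO livers is one that arose with Keap1 deleted in hepatocytes, while other liver cells still carried a copy. An averaged effect alone does not show a shared response, because a large change in 1 genotype also moves the average, so the leading genes are given with their change in each genotype.

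Values are log2 signals after the authors' normalization, and a change is CDDO-Im minus vehicle on that scale. Array medians lay between 2.32 and 2.34, no 2 arrays held identical values (0 pairs), and among the 18193 genes with a probe set, 8338 had a log2 signal above 5 on at least 3 arrays and were tested. Nothing in the labels sets the mice of a group apart by batch. The hepatocyte marker list (Alb, Apoa1, Ttr and others, 16 tested) had a mean log2 level of 15.5 to 15.6 on every array, and 0 of its members were called on average. Keap1, followed by the brighter of its 2 probe sets, had a mean of 7.07 ± 0.46 (SD, n = 3) in WT vehicle, 7.91 ± 0.16 in WT CDDO-Im, 6.39 ± 0.21 in CKO vehicle and 6.34 ± 0.10 in CKO CDDO-Im livers. The highest CKO signal for Keap1 (6.51) lay below the lowest WT signal (6.58). Where this probe set lies in Keap1 was not examined, so it is not used as a check of the deletion. In bulk liver RNA a lower signal from fewer cells of a type cannot be told apart from less RNA per cell.

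Averaged over genotypes, 49 genes were higher and 77 lower after CDDO-Im, at an adjusted p under 0.05 by limma with Benjamini-Hochberg adjustment over all tested genes. These are 1.51% of the tested genes, with 0.588% higher and 0.923% lower. The rises were led by Igfbp1, Zbtb16, Lyve1, Akr1b8 and Bmp6, with averaged changes of 2.60, 2.45, 2.13, 2.10 and 2.04, and the falls by Angptl8, Fasn, Inhbe, Mid1ip1 and Tsc22d1, with -2.61, -1.86, -1.65, -1.64 and -1.44. Changes were mostly moderate, since 12 of the rises and 15 of the falls reached 2-fold. Of all 8338 tested genes, 1928 had a positive and 2892 a negative change in both genotypes. All 126 called genes moved the same way in WT and CKO livers, which calling on the average of the same arrays favours. In 109 of them (41 higher, 0.492% of tested genes, and 68 lower, 0.816%, together 1.31%) the 3 CDDO-Im arrays stood clear of the 3 vehicle arrays within each genotype, which 286 of all tested genes (3.43%) did, 1.25% upward and 2.18% downward. In 26 rises and 41 falls all 6 drug arrays lay beyond all 6 vehicle arrays, which calling on these same arrays also favours. How many of all tested genes did so was not counted, so this is no support for the calls.

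The estimated change of the called genes was usually smaller in CKO livers. The WT change was the larger one in 38 of the 49 rises and 61 of the 77 falls, and the CKO change was a median 0.72 of the WT change among the rises and 0.73 among the falls. Median changes were 0.87 in WT and 0.61 in CKO livers for the rises, and -0.72 and -0.49 for the falls. In 10 rises and 27 falls the changes of the genotypes lay within 0.1 of each other on the log2 scale. Small changes meet this limit easily, and 11 rises and 31 falls had an averaged size under 0.5. The same tally was not made over all tested genes. The test of the difference between genotypes called 1 of the 126, Tsc22d1, against 23 of all tested genes (0.276%), of which 2 (0.024%) had an interaction above 0 and 21 (0.252%) below. A p that missed this test does not show equal responses, and 3 mice per group left wide intervals. Calling by the additive model also holds back genes whose changes differ between genotypes.

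Taken by genotype, WT livers had 157 higher (1.88%) and 147 lower genes (1.76%), together 3.65% of tested genes, and CKO livers had 0 called by limma, with a lowest adjusted p of 0.225 and 790 genes (9.47%) at an unadjusted p under 0.05. The average therefore drew on CKO changes that did not pass a test of their own. The 2 genotype contrasts share no array. Of the 157 genes that rose in WT livers, 98 (62.4%) had a positive CKO change, against 43.6% of all tested genes, and in 35 (22.3%) the CKO drug arrays lay above the CKO vehicle arrays, against 5.18% of all tested genes. Of the 147 that fell in WT livers, 122 (83.0%) had a negative CKO change, against 56.4%, and 49 (33.3%) had CKO arrays apart in that direction, against 9.40%. Over the tested genes the WT and CKO changes had a Pearson correlation of 0.29 and a Spearman correlation of 0.22, described across genes, which are not independent replicates. Of the 126 genes called on average, 77 (61.1%) were also called in WT livers, which is 25.3% of the 304 WT calls.

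**Figure D1:**
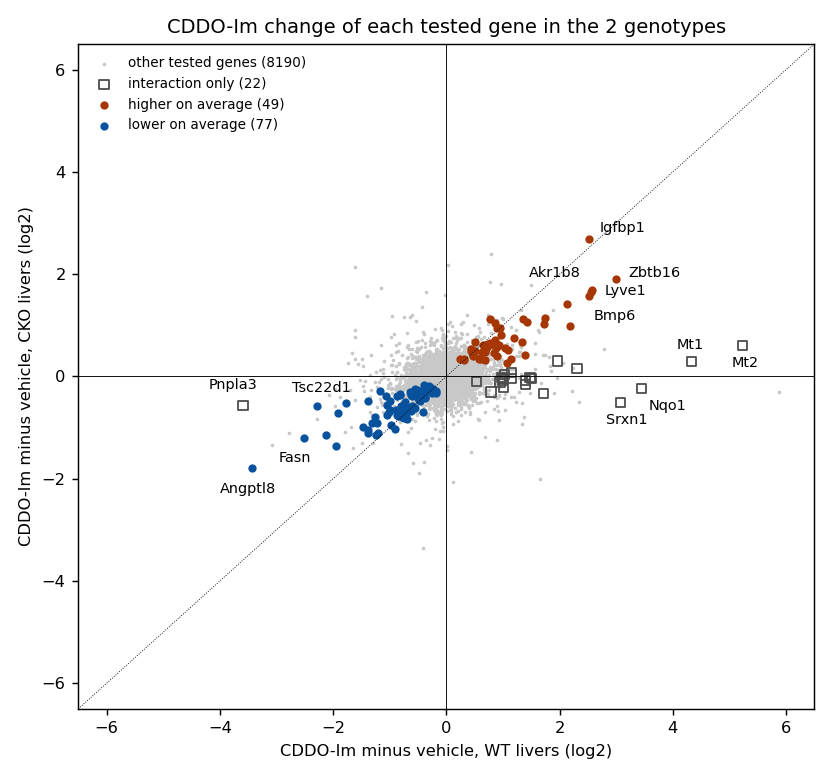
Change after CDDO-Im (log2, vehicle subtracted) of each of the 8338 tested genes in WT livers (horizontal axis) and CKO livers (vertical axis), with the dotted line marking equal change. Filled points mark the 49 genes higher and 77 lower on average, all in the 2 quadrants of equal sign, and open squares mark 22 genes called by the interaction only, among which Mt1, Mt2, Nqo1 and Srxn1 lie far right with CKO changes between -0.52 and 0.61.

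The number of calls depended on single arrays. Leaving out 1 array at a time gave 14 to 84 higher and 13 to 97 lower genes, and the count moved by over 1.5 times in at least 1 direction without any 1 of the arrays except WT vehicle replicate 1. It was lowest without WT vehicle replicate 3 (14 higher and 13 lower) and highest without CKO vehicle replicate 5 (84 higher and 97 lower). Many calls stood close to the threshold, with 46 of the 126 at an adjusted p between 0.04 and 0.05. Called in all 12 of these fits were 23 genes, of which 11 were higher (Bmp2, Ampd3, Bmp6, Abcc1, Akr1b8, Smim13, Tmem140, Tmem87b, Lyve1, Arhgef26 and Ctla2b) and 12 lower, among them Bhlhe40, Gpam, Pgm3, Slc25a45, Tjp3, Shfl, Taf1d and Pde9a. Among the rises, Ampd3 and Abcc1 passed the filter on low signal through their drug arrays alone, so keeping the call is no support for them. No called gene reversed in any fit (0 of 126). For other called genes below, the number of these 12 fits that kept the call is given. Where a gene had several probe sets the brightest stood for it, and other probe sets often gave a smaller averaged change. Among rises described below this was so for Lyve1 (1.82), Ip6k2 (0.66), Gne (0.60), Gclm (0.53) and Ivd (0.37). Among falls it was so for Tsc22d1 (-0.98 in 1 of 3 others), Gpd2 (-0.86 in 1 of 2), Hes6 (-0.86), Zfp467 (-0.66 and -0.75), Nsmf (-0.33 and -0.43), Slc30a1 (-0.38), Cs (-0.37 and -0.36), Idh3a (-0.32 and -0.34), Tsr1 (-0.23) and Fgfr4 (-0.21). Of genes called by the interaction, Mt1 had another probe set at 1.17 and Srxn1 1 of 3 others at 0.10. The split between directions also moved with the scaling of the arrays, from 38.9% of calls being rises to 53.8% (56 higher and 48 lower) after median centring.

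Ligands of the bone morphogenetic protein (BMP) pathway rose on average, with treated livers above vehicle livers in each genotype. Bmp6, the ligand made mainly by liver sinusoidal endothelial cells that drives hepatocyte expression of the iron hormone hepcidin, had signals of 5.64, 6.51 and 5.96 in the WT vehicle group against 8.63, 8.51 and 8.50 after the drug, and of 7.12, 6.96 and 6.33 in the CKO vehicle group against 8.06, 8.27 and 8.78 after the drug. Every drug-treated liver lay above every vehicle-treated liver, and the CKO vehicle livers lay between the WT vehicle and the drug groups apart from 1 overlap. The averaged change was 2.04 ± 0.23 (log2, SE), or 4.11-fold (limma adjusted p = 0.00701), made of 2.51 ± 0.26 in WT (adjusted p = 0.000934) and 1.57 ± 0.26 in CKO livers (unadjusted p = 0.00012, adjusted p = 0.225). The difference between genotypes, -0.94 ± 0.37, did not pass the test (adjusted p = 0.433).

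Bmp2, the second BMP ligand of the liver endothelium that acts on hepcidin, rose by less. It had signals of 7.21, 7.27 and 7.13 (vehicle) and 7.85, 7.92 and 8.08 (CDDO-Im) in WT livers, and 7.58, 7.65 and 7.44 (vehicle) and 8.06, 8.09 and 8.36 (CDDO-Im) in those of CKO mice. The 6 drug arrays again lay above the 6 vehicle arrays. Bmp2 rose by 0.68 ± 0.07 on average, or 1.60-fold (adjusted p = 0.00701), with 0.75 ± 0.10 in WT and 0.61 ± 0.10 in CKO livers and an interaction of -0.14 ± 0.14 (adjusted p = 0.772).

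Hamp, which encodes hepcidin, showed no change of this size at 6 h. It had signals of 14.66, 14.58 and 14.69 in the WT vehicle group against 14.80, 14.93 and 14.73 after the drug, and of 14.71, 14.83 and 14.01 in the CKO vehicle group against 14.89, 14.14 and 14.92 after the drug, a difference of 0.16 ± 0.16 on average (adjusted p = 0.656). The drug arrays stood just above the vehicle arrays in WT livers, and the CKO groups overlapped. Of the 28 tested genes for heme and iron handling, 2 rose (Bmp6 and Bmp2) and 0 fell, while 0.588% of all tested genes rose on average. The list median was 0.09 (0.13 in WT and 0.01 in CKO livers), against -0.02 over all tested genes. In WT livers 5 of these 28 rose, as did 1.88% of all tested genes. Hmox1, which degrades heme and is a textbook Nrf2 target, differed by 0.58 ± 0.33 on average (adjusted p = 0.381), from 1.47 ± 0.29 in WT (adjusted p = 0.022) and -0.32 ± 0.29 in CKO livers.

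Of other genes of endothelial cells, Lyve1, Robo4 and Esam rose beside the BMP ligands, while most endothelial markers were not called. Lyve1, a hyaluronan receptor of lymphatic and liver sinusoidal endothelium, had signals of 5.01, 5.49 and 6.77 (vehicle) and 8.25, 7.91 and 8.84 (CDDO-Im) in WT livers, and of 7.67, 7.52 and 8.79 (vehicle) and 9.93, 9.43 and 9.69 (CDDO-Im) in those of CKO mice. Within each genotype the groups did not overlap, while CKO vehicle livers overlapped WT CDDO-Im livers. The averaged rise was 2.13 ± 0.34, or 4.38-fold (adjusted p = 0.0165), from 2.57 ± 0.46 in WT and 1.69 ± 0.46 in CKO livers. Robo4, an endothelial receptor of the roundabout family, and Esam, an endothelial adhesion molecule of cell junctions, were picked out after their values were seen. They rose by 0.55 ± 0.11 (adjusted p = 0.0331, kept in 3 of the 12 fits) and 0.62 ± 0.11 (adjusted p = 0.0258, kept in 7).

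The other endothelial markers were not called. Of the 16 tested members of the endothelial list 2 were called, Lyve1 and Bmp2. Both rose, as did 0.588% of all tested genes. The list median was -0.06. In both genotypes 8 members had a negative and 4 a positive change, as had 2892 and 1928 of all 8338 tested genes. Stab2, a scavenger receptor of sinusoidal endothelium, differed by -0.40 ± 0.15 (adjusted p = 0.200) and Kdr, the main VEGF receptor, by -0.28 (adjusted p = 0.343). The mean log2 level of the list ranged over 7.95 to 8.14 in WT vehicle, 7.90 to 8.19 in WT CDDO-Im, 8.03 to 8.19 in CKO vehicle and 8.10 to 8.39 in CKO CDDO-Im livers. What share cell numbers had in these rises was not tested.

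**Figure D2:**
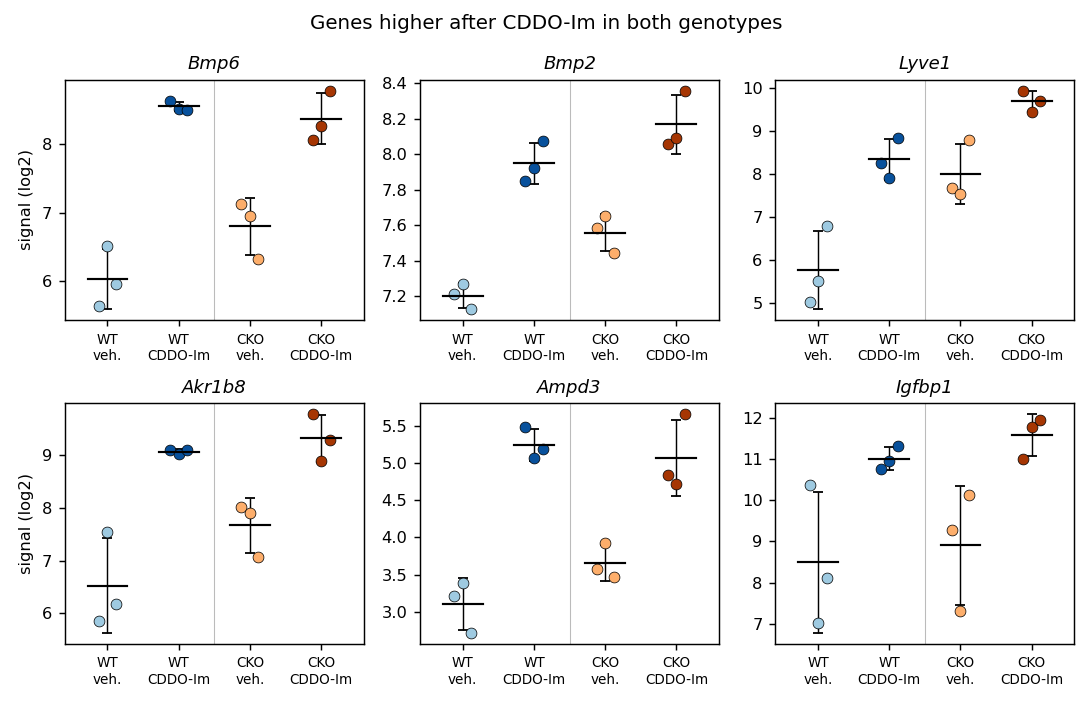
Signal (log2) of 6 genes that rose after CDDO-Im, 1 point per mouse, with the mean (line) and SD (bar) of the 3 mice of each group. Bmp6, Bmp2, Akr1b8, Ampd3 and Igfbp1 have all 6 drug-treated livers above all 6 vehicle-treated livers, and Lyve1 does so within each genotype only.

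The promoter windows of called and uncalled genes were searched for TGACNNNGC, the core of the antioxidant response element, on both strands. RefSeq windows of build GRCm38.p6 run from 250 bases before to 50 after a gene's start, and 6852 of the 8338 tested genes had at least 1. A match was found in 14.8% of all 8810 windows, in 11 of 55 windows (20.0%) of the genes that rose on average and in 11 of 84 (13.1%) of those that fell. Among the 21 genes that rose in WT livers with an interaction below 0, 10 of 30 windows (33.3%) held it. Shown are Bmp6 and Gclm, which rose on average and have a match, beside Srxn1 and Txnrd1 from the genes whose rise was limited by genotype. All 4 windows are on the + strand of the genome and are printed 5′ to 3′ with the match in capitals, at chr13:38345466-38345765 for Bmp6, chr3:122245307-122245606 for Gclm, chr2:152105274-152105573 for Srxn1 and chr10:82858956-82859255 for Txnrd1. In Bmp6 the letters read on the + strand, and in the others they are the reverse complement. A match describes letters and is not a measured binding site.
Bmp6: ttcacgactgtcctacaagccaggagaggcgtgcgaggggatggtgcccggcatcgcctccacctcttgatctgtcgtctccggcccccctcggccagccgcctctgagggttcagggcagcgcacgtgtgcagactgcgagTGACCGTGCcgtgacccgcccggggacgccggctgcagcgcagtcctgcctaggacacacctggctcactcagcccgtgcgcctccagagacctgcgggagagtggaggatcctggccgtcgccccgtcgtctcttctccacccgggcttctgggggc
Gclm: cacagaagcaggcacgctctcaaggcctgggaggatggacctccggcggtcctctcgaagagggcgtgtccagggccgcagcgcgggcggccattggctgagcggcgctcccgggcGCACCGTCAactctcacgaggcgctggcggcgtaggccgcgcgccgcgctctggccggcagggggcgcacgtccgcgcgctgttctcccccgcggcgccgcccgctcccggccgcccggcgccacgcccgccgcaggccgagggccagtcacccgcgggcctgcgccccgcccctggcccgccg
Srxn1: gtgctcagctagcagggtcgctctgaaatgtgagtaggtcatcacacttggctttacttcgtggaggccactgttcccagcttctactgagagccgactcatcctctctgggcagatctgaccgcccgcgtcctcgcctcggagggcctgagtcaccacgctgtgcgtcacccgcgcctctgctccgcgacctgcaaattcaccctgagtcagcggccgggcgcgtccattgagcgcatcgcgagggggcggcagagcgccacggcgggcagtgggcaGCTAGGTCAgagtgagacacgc
Txnrd1: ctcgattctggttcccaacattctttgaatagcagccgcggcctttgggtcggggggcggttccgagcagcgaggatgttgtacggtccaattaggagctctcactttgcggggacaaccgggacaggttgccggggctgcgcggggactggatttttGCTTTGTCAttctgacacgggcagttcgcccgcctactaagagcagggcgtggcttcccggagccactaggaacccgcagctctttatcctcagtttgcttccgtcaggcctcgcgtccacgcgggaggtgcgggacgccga

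The letters of 2 further elements were searched in the same windows. TGCNCNC, the core of the metal response element, stood in 59.9% of all windows, 58.2% of those of the rises and 51.2% of those of the falls. TCACNCCAC, a sterol response element, stood in 1.26% of all windows, 1 of 55 (1.82%) of the rises and 0 of 84 of the falls. TGCNCNC is so short that most windows of this length hold it.

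Of the enzymes and pumps that remove electrophiles, few were called higher on average by the additive model. Akr1b8, an aldo-keto reductase of reactive aldehydes, had signals of 5.86, 7.55 and 6.18 in the WT vehicle group against 9.10, 9.02 and 9.10 after the drug, and of 8.02, 7.91 and 7.07 in the CKO vehicle group against 9.78, 8.89 and 9.29 after the drug. All drug arrays lay above all vehicle arrays. It rose by 2.10 ± 0.31, or 4.29-fold (adjusted p = 0.0165), with 2.55 ± 0.41 in WT and 1.65 ± 0.41 in CKO livers. Abcc1, an efflux pump of glutathione conjugates also called MRP1, had low signals of 3.34, 4.33 and 3.34 in WT vehicle and 4.91, 4.41 and 4.20 in CKO vehicle livers, against 5.50, 5.39 and 5.26 (WT) and 5.55, 5.31 and 5.76 (CKO) after the drug. The drug arrays of the 2 genotypes overlapped, and so did their vehicle arrays, all of which lay below 5. The averaged change of Abcc1 was 1.37 ± 0.21 (adjusted p = 0.0165), with 1.72 ± 0.27 in WT and 1.03 ± 0.27 in CKO livers. It passed the filter through its drug arrays alone, from vehicle signals near background, so these values are a description.

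Gclm, the modifier subunit of the enzyme that limits glutathione synthesis, and Bach1, a heme-binding repressor that competes with Nrf2 at its sites, rose by smaller amounts and less firmly. Gclm had signals of 12.42, 12.47 and 12.66 (vehicle) and 13.51, 13.79 and 13.45 (CDDO-Im) in WT livers, and of 12.71, 12.68 and 12.61 (vehicle) and 13.09, 12.78 and 12.94 (CDDO-Im) in those of CKO mice. The CKO drug livers stood just above the CKO vehicle livers and below all WT drug livers. Gclm rose by 0.67 ± 0.14 on average (adjusted p = 0.0458), from 1.07 ± 0.11 in WT and 0.27 ± 0.11 in CKO livers, and the interaction of -0.80 ± 0.16 had an adjusted p of 0.0885. Bach1 rose by 0.74 ± 0.16 (adjusted p = 0.0459), from 1.14 ± 0.14 in WT and 0.33 ± 0.14 in CKO livers, where its drug and vehicle arrays overlapped. Each kept its call in 2 of the 12 fits, with the highest adjusted p for Gclm without WT vehicle replicate 3 (0.104) and for Bach1 without WT CDDO-Im replicate 4 (0.105).

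The catalytic subunit Gclc behaved otherwise. It had signals of 12.46, 12.56 and 12.76 in the WT vehicle group against 14.10, 14.14 and 14.04 after the drug, and of 13.75, 13.89 and 13.57 in the CKO vehicle group against 13.72, 13.57 and 13.79 after the drug. CKO livers stood between the WT groups with either treatment, and the averaged change of 0.73 ± 0.24 did not pass the test (adjusted p = 0.149). The WT change was 1.50 ± 0.11 (adjusted p = 0.000333), the CKO change -0.05 ± 0.11, and the interaction was called at -1.54 ± 0.15 (adjusted p = 0.0052).

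The same held for Nqo1, the quinone reductase long used as a readout of Nrf2, and for Srxn1, which repairs oxidised peroxiredoxins. Nqo1 had signals of 5.18, 6.53 and 6.96 (vehicle) and 9.86, 9.59 and 9.56 (CDDO-Im) in WT livers, and of 11.04, 11.16 and 11.05 (vehicle) and 10.78, 10.74 and 11.05 (CDDO-Im) in those of CKO mice, so that CKO livers with vehicle already lay above WT livers with drug. Its averaged change was 1.61 ± 0.60 (adjusted p = 0.185) and its interaction -3.68 ± 0.49 (adjusted p = 0.0187). Srxn1 had 9.05, 9.84 and 9.76 in the WT vehicle group against 12.32, 12.94 and 12.61 after the drug, and 11.91, 11.84 and 11.68 in the CKO vehicle group against 10.86, 11.32 and 11.70 after the drug, with an averaged change of 1.28 ± 0.56 (adjusted p = 0.260) and an interaction of -3.59 ± 0.36 (adjusted p = 0.0052). Txnrd1, the cytosolic thioredoxin reductase, had an averaged change of 0.66 ± 0.24 (adjusted p = 0.176), from 1.40 in WT and -0.08 in CKO livers, and an interaction of -1.48 ± 0.18 (adjusted p = 0.0138).

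**Figure D3:**
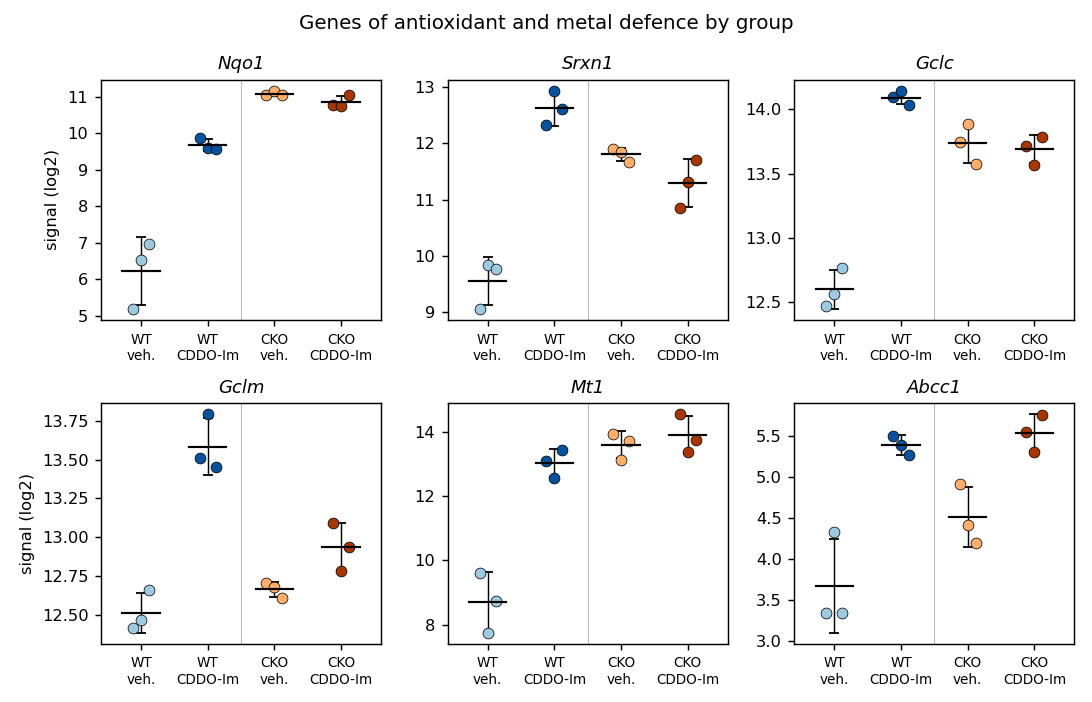
Signal (log2) of 6 genes of antioxidant and metal defence, 1 point per mouse, with the mean (line) and SD (bar) of the 3 mice of each group. Nqo1, Srxn1, Gclc and Mt1 are higher with drug in WT livers only and were called by the interaction, while Gclm and Abcc1 have drug-treated livers above vehicle-treated livers in each genotype.

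Counted over the defence lists, the averaged effect called 1 of 23 genes of quinone, carbonyl and aldehyde reduction (Akr1b8), 1 of 26 of glutathione synthesis and conjugation (Gclm), 0 of 21 of thioredoxin and peroxide reduction, 0 of 13 of NADPH supply and 0 of 18 of glucuronidation and sulfation, all among rises. Over all tested genes 0.588% rose on average. Across the alternative settings these lists held, in the same order, 0 to 6, 0 to 4, 0 to 2, 0 and 0 to 1 rises. Nqo1, Srxn1, Gclc and Txnrd1 were each called on average in 1 of 26 alternatives. The additive model counts their genotype difference as spread, which holds back an averaged call. With 4 group means, where that difference is fitted, 100 of all tested genes were called higher and 105 lower on average. WT livers alone had 7, 7, 2, 2 and 3 rises in these lists, against 1.88% of all tested genes, and 1 fall in the NADPH list. Their list medians on average were 0.11, 0.20, 0.06, 0.12 and 0.12, against -0.02 over all tested genes. By genotype the medians were 0.17, 0.42, 0.08, 0.12 and 0.17 in WT livers, and 0.08, -0.01, 0.06, 0.10 and 8.5e-05 in CKO livers. The transporter list had 1 rise among 22, Abcc1, which passed the filter through its drug arrays alone. The list of Keap1 and Nrf2 regulators had 1 among 11, Bach1. Nfe2l2, which encodes Nrf2, differed by -0.39 ± 0.10 (adjusted p = 0.0819), and Keap1 by 0.39 ± 0.19 (adjusted p = 0.299), with 0.84 ± 0.20 in WT and -0.05 ± 0.20 in CKO livers. The other Keap1 probe set differed by 0.49 on average, with 0.66 in WT and 0.31 in CKO livers. Cytochromes P450 of families 1 to 3 had 0 calls among 23, and the member with the largest difference, Cyp2b9 at -0.71 ± 1.33 (adjusted p = 0.829), had 1 CKO vehicle liver at 11.83 with the others at 2.49 and 4.66.

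Metallothioneins, which bind zinc and copper, followed the pattern of Nqo1, while a zinc exporter fell on average. Mt2 had the largest averaged change of its list at 2.92 ± 0.78 without passing the test (adjusted p = 0.0888), from 5.23 ± 0.55 in WT and 0.61 ± 0.55 in CKO livers. Slc30a1, which exports zinc across the plasma membrane, had signals of 11.11, 11.54 and 11.48 (vehicle) and 10.57, 10.83 and 10.15 (CDDO-Im) in WT livers, and of 11.18, 11.54 and 10.96 (vehicle) and 10.78, 10.50 and 10.09 (CDDO-Im) in those of CKO mice. All drug arrays lay below all vehicle arrays. It fell by 0.81 ± 0.15 on the log2 scale, or 1.76-fold (adjusted p = 0.0316, kept in 4 of the 12 fits), with -0.86 ± 0.23 in WT and -0.77 ± 0.23 in CKO livers. Slc30a1 was the only call among the 19 tested genes of the list, while 0.923% of all tested genes fell on average.

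Igfbp1, a secreted binding protein of insulin-like growth factors that insulin represses, had the largest averaged rise among the called genes, with estimates of similar size in the 2 genotypes. It had signals of 10.37, 7.01 and 8.11 in the WT vehicle group against 10.76, 10.96 and 11.33 after the drug, and 9.27, 7.32 and 10.14 in the CKO vehicle group against 11.02, 11.79 and 11.96 after the drug. The vehicle livers spread over more than 3 log2 units, yet every drug-treated liver lay above all of them. The averaged rise was 2.60 ± 0.56, or 6.06-fold (adjusted p = 0.0483), with 2.52 ± 0.83 in WT and 2.68 ± 0.83 in CKO livers and an interaction of 0.16 ± 1.18. The call was kept in 2 of the 12 fits, and the highest adjusted p was 0.115, without WT vehicle replicate 3.

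Zbtb16, a transcription factor that glucocorticoids induce, rose by 2.45 ± 0.54, or 5.48-fold (adjusted p = 0.0485, kept in 1 of the 12 fits and at 0.113 without WT vehicle replicate 3). Its signals were 6.18, 4.18 and 5.31 (vehicle) and 8.59, 7.06 and 9.02 (CDDO-Im) in WT livers, and 5.50, 6.14 and 6.34 (vehicle) and 6.31, 8.24 and 9.16 (CDDO-Im) in those of CKO mice, so that 1 CKO drug liver lay within the CKO vehicle range. Igfbp1 and Zbtb16 were the 2 calls among 24 glucocorticoid-responsive genes, while 0.588% of all tested genes rose on average. The list median was 0.29 (0.58 in WT and 0.17 in CKO livers), against -0.02 over all tested genes. With 1 array left out the list held 0 to 1 calls. Fkbp5, a co-chaperone of the glucocorticoid receptor, differed by 1.11 ± 0.26 (adjusted p = 0.0676) and Tsc22d3, another classical target, by 0.15 (adjusted p = 0.730). Of the list's 24 members, 17 had a positive change in both genotypes, as did 1928 of all 8338 tested genes. Cebpb, a transcription factor of the liver's acute and fasting responses, was the 1 call among 19 immediate early transcription factors, with a rise of 0.79 ± 0.17 (adjusted p = 0.0474, kept in 2 fits).

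Ampd3 deaminates AMP to IMP, and its signals of 3.21, 3.39 and 2.72 in WT vehicle and 3.57, 3.93 and 3.47 in CKO vehicle livers became 5.48, 5.06 and 5.19 in WT CDDO-Im and 4.84, 4.71 and 5.66 in CKO CDDO-Im livers. All drug arrays lay above all vehicle arrays. The averaged change was 1.77 ± 0.20 (adjusted p = 0.00701), with 2.14 ± 0.26 in WT and 1.41 ± 0.26 in CKO livers (CKO unadjusted p = 0.000232). Ampd3 and Abcc1 had no vehicle array above 5 and passed the filter on low signal through their drug arrays alone. Their vehicle signals were near background, so their p-values and sizes are given as a description, without a linear fold.

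Ip6k2, an inositol hexakisphosphate kinase, rose by 1.44 ± 0.28, or 2.71-fold (adjusted p = 0.0331, kept in 3 fits), and Slc8b1, the sodium and calcium exchanger of mitochondria, by 1.24 ± 0.27, or 2.36-fold (adjusted p = 0.0474, kept in 3 fits). Arhgef26, an exchange factor for RhoG, rose by 0.98 ± 0.15 (adjusted p = 0.0165). For 4 other rises the estimated changes in the 2 genotypes were close or larger in CKO livers. Tbc1d8, which carries the TBC domain of Rab GTPase-activating proteins, had a change of 0.94 in each genotype (kept in 11 fits). Ctla2b, a cysteine protease inhibitor, rose by 0.95 on average from 0.86 in WT and 1.04 in CKO livers, and Tmem140, a transmembrane protein, by 0.92 from 0.89 and 0.95. Ppm1k, the phosphatase that activates breakdown of branched-chain amino acids, rose by 0.95 ± 0.17 (adjusted p = 0.0258, kept in 6 fits), from 0.78 in WT and 1.12 in CKO livers, and Ivd, an enzyme of leucine breakdown picked out after its values were seen, by 0.44 ± 0.08 (adjusted p = 0.0305, kept in 4 fits).

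Clec4n, a lectin of myeloid cells also called Dectin-2, had signals of 5.24, 5.07 and 4.90 in the WT vehicle group against 7.39, 7.15 and 7.23 after the drug, and of 6.50, 6.97 and 5.76 in the CKO vehicle group against 7.78, 7.03 and 7.35 after the drug. The drug arrays lay above the vehicle arrays in both genotypes, narrowly so in CKO livers. Clec4n rose by 1.58 ± 0.26, or 3.00-fold (adjusted p = 0.0178, kept in 10 fits), and Treml4, a receptor of the TREM family, by 0.90 ± 0.18 (adjusted p = 0.0331, kept in 4 fits), from 1.39 in WT and 0.41 in CKO livers. Of 13 tested Kupffer cell and macrophage markers, 0 were called and the median was 0.04, and the mean log2 level of the list was 8.49 to 9.43 in WT vehicle, 9.06 to 9.22 in WT CDDO-Im, 9.05 to 9.58 in CKO vehicle and 9.07 to 9.49 in CKO CDDO-Im livers, and its part in these rises was not tested. Clec4f, the defining lectin of mouse Kupffer cells, differed by 0.11 ± 0.16 (adjusted p = 0.768).

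Genes of fatty acid and triglyceride synthesis held the most called falls of the 33 lists. Of 31 tested members 4 fell (Fasn, Pklr, Gpam and Agpat2) and 0 rose, with a median of -0.29 against -0.02 over all tested genes. The list median was -0.43 in WT but -0.07 in CKO livers, against -0.02 over all tested genes in each genotype. A negative change in both genotypes was found in 17 of the 31, as in 2892 of all 8338. Over all tested genes 0.923% fell. With 1 array left out the count of 4 became 1 (without WT vehicle replicate 3), 2 (without CKO vehicle replicate 4, WT vehicle replicate 2, or WT CDDO-Im replicate 2 or 3) or 10 (without CKO vehicle replicate 5), and was 3 or 4 in the other fits. The tally of members negative in both genotypes was higher in 3 lists with 0 called members, at 14 of 21 for cholesterol synthesis, 23 of 37 for proteasome subunits and 24 of 41 for unfolded protein and amino acid stress. Fasn, fatty acid synthase, had signals of 14.43, 14.18 and 14.37 (vehicle) and 12.47, 11.57 and 11.41 (CDDO-Im) in WT livers, and of 13.10, 13.26 and 11.92 (vehicle) and 11.43, 11.66 and 11.56 (CDDO-Im) in those of CKO mice. CKO vehicle livers were below WT vehicle livers, and the drug took both genotypes to a similar level. Fasn fell by 1.86 ± 0.30 on the log2 scale, or 3.63-fold (adjusted p = 0.0172, kept in 11 of the 12 fits and at 0.0553 without WT vehicle replicate 3), with -2.51 ± 0.34 in WT and -1.21 ± 0.34 in CKO livers.

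Pklr, the liver pyruvate kinase that ends glycolysis, had signals of 11.84, 12.05 and 11.91 in the WT vehicle group against 10.36, 10.15 and 9.52 after the drug, and of 10.45, 10.76 and 10.12 in the CKO vehicle group against 9.64, 9.98 and 9.57 after the drug. As for Fasn, the CKO vehicle livers already stood below the WT vehicle livers. Pklr fell by 1.32 ± 0.23, or 2.49-fold (adjusted p = 0.0238, kept in 7 fits), with -1.92 ± 0.22 in WT and -0.71 ± 0.22 in CKO livers. Gpam, the mitochondrial acyltransferase that starts glycerolipid synthesis, fell by 0.78 ± 0.12 (adjusted p = 0.0165) with -0.89 in WT and -0.66 in CKO livers, and Agpat2, the next acyltransferase of that route, by 0.59 ± 0.11 (adjusted p = 0.029, kept in 5 fits).

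Several other lipogenic genes differed by as much without passing the test on average. Pnpla3, a lipid droplet hydrolase, differed by -2.08 ± 0.50 (adjusted p = 0.0706). It had group means of 6.01 in WT vehicle, 2.42 in WT CDDO-Im, 3.04 in CKO vehicle and 2.47 in CKO CDDO-Im livers, and passed the filter through the WT vehicle arrays alone. The other 3 groups were near background, so its fall in CKO livers could not be measured and its called interaction is no measure of unequal response. Elovl6, a fatty acid elongase, differed by -1.55 ± 0.35 (adjusted p = 0.0621), Acly, which makes cytosolic acetyl-CoA, by -1.14 ± 0.30 (adjusted p = 0.085) and Srebf1, a lipogenic transcription factor, by -1.11 ± 0.37 (adjusted p = 0.156). Scd1, the stearoyl-CoA desaturase, differed by -0.05 ± 0.14 (adjusted p = 0.892). The largest positive difference in the list was that of Lpin1, a phosphatidate phosphatase and coactivator, at 1.40 ± 0.49 (adjusted p = 0.166).

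Outside the list, Mid1ip1, a protein that promotes assembly of acetyl-CoA carboxylase, had signals of 12.86, 13.30 and 13.31 (vehicle) and 11.66, 11.17 and 10.24 (CDDO-Im) in WT livers, and of 12.66, 12.72 and 11.85 (vehicle) and 11.28, 11.20 and 11.32 (CDDO-Im) in those of CKO mice. All drug arrays lay below all vehicle arrays. It fell by 1.64 ± 0.27, or 3.11-fold (adjusted p = 0.0178, kept in 11 fits), with -2.13 in WT and -1.14 in CKO livers. Another 3 metabolic genes were picked out after their values were seen. Angptl8, a secreted regulator of lipoprotein lipase, fell by 2.61 ± 0.52, or 6.10-fold (adjusted p = 0.0398, kept in 4 fits), and in CKO livers its drug arrays (8.86, 7.25 and 9.15) overlapped the lowest vehicle array, at 8.86. Tkfc, the triokinase of fructose breakdown, fell by 1.23 ± 0.25 (adjusted p = 0.0447, kept in 2 fits), and Gpd2, the mitochondrial glycerol-3-phosphate dehydrogenase, by 1.14 ± 0.25 (adjusted p = 0.0483, kept in 1 fit).

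**Figure D4:**
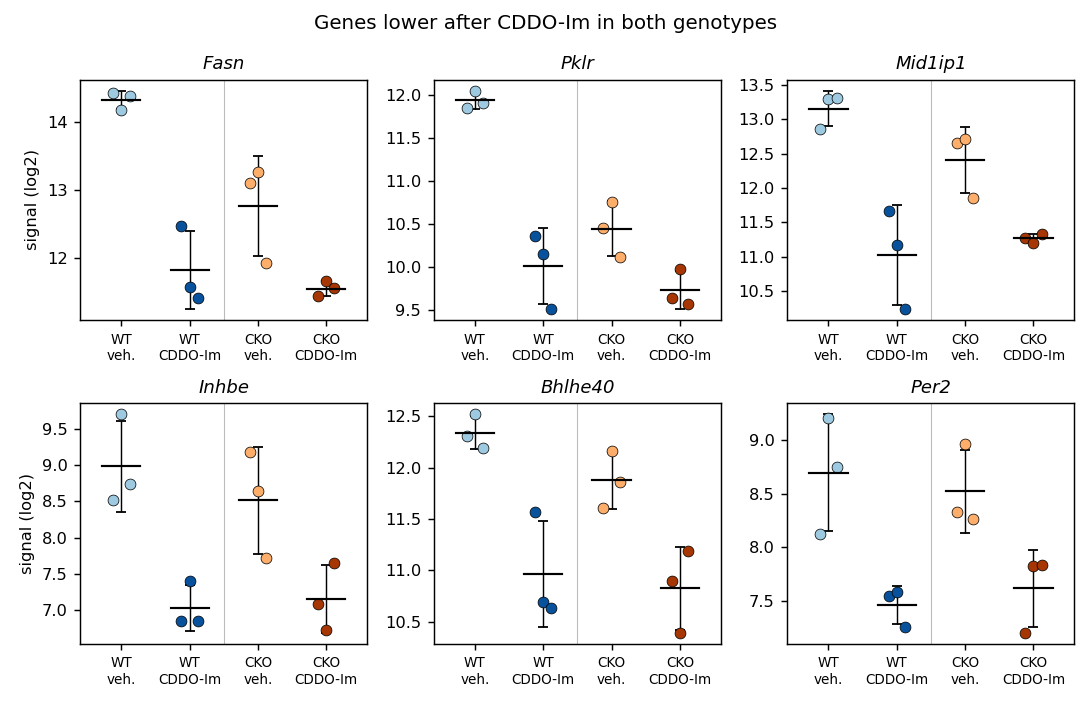
Signal (log2) of 6 genes that fell after CDDO-Im, 1 point per mouse, with the mean (line) and SD (bar) of the 3 mice of each group. Mid1ip1, Inhbe, Bhlhe40 and Per2 have all 6 drug-treated livers below all 6 vehicle-treated livers, and Fasn and Pklr do so within each genotype, with CKO vehicle livers below WT vehicle livers.

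Other metabolic lists held few or no calls on average, where 0.588% of all tested genes rose and 0.923% fell. Pklr, which also stands in the lipid list, was the 1 call among 20 genes of gluconeogenesis and glucose handling, where Pck1, the enzyme that commits carbon to glucose synthesis, differed by 1.39 ± 0.39 (adjusted p = 0.100), from 0.97 in WT and 1.81 in CKO livers. Cholesterol synthesis and uptake had 0 calls among 21, with a median of -0.25 (-0.51 in WT and -0.12 in CKO livers). Its member with the largest difference, Fdps, which makes farnesyl diphosphate, stood at -0.85 ± 0.32 (adjusted p = 0.200). In the list of fatty acid oxidation and PPAR alpha there were 0 calls among 31, with a median of 0.05 and a largest difference of 0.98 ± 0.44 for Angptl4 (adjusted p = 0.277). Bile acid synthesis and its control had 1 call among 20, the receptor Fgfr4, through which an intestinal hormone represses bile acid synthesis, which fell by 0.55 ± 0.11 (adjusted p = 0.0316, kept in 4 fits). The fall of Fgfr4 was -0.41 in WT and -0.70 in CKO livers.

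Enzymes of the mitochondrial citric acid cycle were seen among the small but tight falls, picked out after their values were seen. Cs, citrate synthase, fell by 0.41 ± 0.06, or 1.33-fold (adjusted p = 0.0165, kept in 11 fits), and Idh3a, a subunit of the NAD-dependent isocitrate dehydrogenase, by 0.41 ± 0.07 (adjusted p = 0.0209, kept in 7 fits), each with all 6 drug arrays below all 6 vehicle arrays. Ndufa8, a subunit of respiratory complex I, fell by 0.25 ± 0.05 (adjusted p = 0.0458, kept in 2 fits). In amino sugar synthesis, Gne, which starts sialic acid synthesis, rose by 0.71 ± 0.12 (adjusted p = 0.0195, kept in 9 fits), while Pgm3, which makes the precursor of UDP-N-acetylglucosamine, fell by 0.79 ± 0.11 (adjusted p = 0.0165) to the same extent in WT (-0.79) and CKO livers (-0.80).

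Secreted signals changed in both directions, with 3 rises (Igfbp1, Bmp6 and Bmp2) and 1 fall among 22 tested genes. Over all tested genes 0.588% rose and 0.923% fell on average. Bmp6 and Bmp2 are also counted in the heme and iron list, Bmp2 in the endothelial list and Igfbp1 in the glucocorticoid list. Inhbe, the liver's subunit of activin E, had signals of 8.51, 9.69 and 8.73 in the WT vehicle group against 6.85, 7.40 and 6.86 after the drug, and of 9.18, 8.64 and 7.72 in the CKO vehicle group against 7.09, 6.72 and 7.65 after the drug. All drug arrays lay below all vehicle arrays, by a narrow margin in CKO livers. Inhbe fell by 1.65 ± 0.29, or 3.14-fold (adjusted p = 0.0218, kept in 7 fits and at 0.0658 without WT CDDO-Im replicate 4), with -1.94 in WT and -1.36 in CKO livers. Inhba, which encodes the subunit of activin A, differed by -1.95 ± 0.47 (adjusted p = 0.0719). Leap2, a secreted peptide that blocks the ghrelin receptor, fell by 1.12 ± 0.19, or 2.17-fold (adjusted p = 0.0192, kept in 9 fits), with -1.32 in WT and -0.91 in CKO livers.

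A pair of circadian clock repressors fell. Bhlhe40, also called Dec1, had signals of 12.31, 12.52 and 12.20 (vehicle) and 11.56, 10.69 and 10.64 (CDDO-Im) in WT livers, and of 11.61, 12.16 and 11.86 (vehicle) and 10.90, 10.39 and 11.19 (CDDO-Im) in those of CKO mice. Per2, a core clock repressor, had 8.12, 9.21 and 8.75 in the WT vehicle group against 7.54, 7.58 and 7.26 after the drug, and 8.33, 8.97 and 8.27 in the CKO vehicle group against 7.20, 7.82 and 7.83 after the drug. For both genes all drug arrays lay below all vehicle arrays. Bhlhe40 fell by 1.21 ± 0.19, or 2.32-fold (adjusted p = 0.0165), with -1.38 in WT and -1.05 in CKO livers, and Per2 by 1.07 ± 0.20, or 2.10-fold (adjusted p = 0.0305, kept in 4 fits), with -1.23 and -0.90. They were the 2 calls among 18 clock genes, whose median was 0.16, while 0.923% of all tested genes fell on average. Per1 differed by 0.30 (adjusted p = 0.559) and Clock, the positive arm's partner of Bmal1, by -0.01 (adjusted p = 0.975).

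The other leading falls had unlike functions. Tsc22d1, a TSC22-domain regulator that TGF-beta induces, had signals of 12.41, 12.80 and 13.15 (vehicle) and 10.41, 10.68 and 10.42 (CDDO-Im) in WT livers, and of 11.74, 11.51 and 11.20 (vehicle) and 10.73, 11.19 and 10.77 (CDDO-Im) in those of CKO mice. It fell by 1.44 ± 0.29, or 2.71-fold (adjusted p = 0.0398, kept in 2 fits), and was the gene called both on average and by the interaction, with -2.29 ± 0.20 in WT and -0.59 ± 0.20 in CKO livers (interaction 1.70 ± 0.29, adjusted p = 0.0492). All its drug arrays lay below all vehicle arrays, and the fall differed in size between genotypes.

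Celsr1, an atypical cadherin of planar cell polarity, fell by 1.16 ± 0.21 (adjusted p = 0.0293, kept in 3 fits), Anks4b, a scaffold with ankyrin repeats, by 1.03 ± 0.16 (adjusted p = 0.0165, kept in 11 fits) and Tjp3, the tight junction protein ZO-3, by 0.97 ± 0.15 (adjusted p = 0.0165). In CKO livers their changes were -1.12, -0.79 and -1.03. The zinc finger protein Zfp467 fell by 1.19 ± 0.19 (adjusted p = 0.0165, kept in 11 fits), Shfl, an interferon-induced inhibitor of ribosomal frameshifting, by 0.96 ± 0.15 (adjusted p = 0.0165), Hes6, a transcription factor of the hairy family, by 0.93 ± 0.17 (adjusted p = 0.0305, kept in 5 fits) and Slc25a45, a mitochondrial carrier, by 0.91 ± 0.13 (adjusted p = 0.0165). Zfp467, Shfl and Tjp3 changed by almost the same amount in WT (-1.23, -0.98 and -0.91) and CKO livers (-1.14, -0.95 and -1.03), whereas Hes6 changed by -1.38 and -0.48. In Nsmf the averaged call rested mostly on WT livers, at -0.72 ± 0.15 on average (adjusted p = 0.0458), -1.17 in WT and -0.28 in CKO livers, and the call was kept in 3 fits (0.104 without WT vehicle replicate 3).

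Stress and immune lists held few calls on average, where 0.588% of all tested genes rose and 0.923% fell. Bcl3, an atypical inhibitor of kappa B, fell by 0.83 ± 0.18 (adjusted p = 0.0474, kept in 3 fits) and was the 1 call among 14 inflammatory signals and NF-kB targets. Calcoco1, a receptor of selective autophagy, rose by 0.49 ± 0.10 (adjusted p = 0.0458, kept in 2 fits) and was the 1 call among 25 autophagy genes. Tsr1, a ribosome assembly factor, fell by 0.67 ± 0.11 (adjusted p = 0.0209, kept in 10 fits) and was the 1 call among 55 genes of ribosome production, where the median was -0.11. Taf1d, a subunit of the RNA polymerase I initiation factor picked out after its values were seen, fell by 0.69 ± 0.08 (adjusted p = 0.00942).

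No member was called on average by limma in acute phase proteins (0 of 24, median -0.03), the interferon response (0 of 30, median -0.09), heat shock and chaperones (0 of 35, median -0.14), unfolded protein and amino acid stress (0 of 41, median -0.21) or proteasome subunits (0 of 37, median -0.06). The members with the largest differences were Lcn2 at -0.97 ± 0.90 (adjusted p = 0.610), Oasl1 at -0.74 ± 0.39 (adjusted p = 0.342), Hspa1b at -0.80 ± 0.45 (adjusted p = 0.368), Ddit4 at 1.65 ± 0.54 (adjusted p = 0.144) and Psmd4 at -0.25 ± 0.08 (adjusted p = 0.157). Ddit4, an inhibitor of mTOR signalling that stress induces, was higher after CDDO-Im in WT livers (2.78 ± 0.63, adjusted p = 0.0397) and differed by 0.53 ± 0.63 in CKO livers.

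Lists on growth, sex and liver zones had 0 calls on average, as cell cycle (0 of 14), p53 targets and growth arrest (0 of 18), male-biased genes (0 of 17), female-biased genes (0 of 5), pericentral genes (0 of 18) and periportal genes (0 of 19). Their medians lay between -0.01 and 0.16. The members with the largest differences were Tk1 at 0.61 (adjusted p = 0.072), Gadd45a at -1.40 (adjusted p = 0.113), Moxd1 at -1.19 (adjusted p = 0.681), Fmo2 at 0.97 (adjusted p = 0.115), Car2 at -0.66 (adjusted p = 0.296) and Pck1, described above. Other probe sets of Fmo2 stood at 1.52, 1.28 and 0.93, and that at 1.28 was called when every probe set was tested (limma adjusted p = 0.0495). At an unadjusted p under 0.05, 1496 of all tested genes (17.9%) differed on average.

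Markers of other cell types were likewise uncalled on average, in stellate cells and fibroblasts (0 of 14 tested, median 0.02), neutrophils (0 of 1), lymphocytes (0 of 1), cholangiocytes (0 of 2), erythroid cells (0 of 2), pancreatic acinar cells (0 of 2), adipose tissue (0 of 2) and intestinal epithelium (0 of 2). Most defining markers of these last 7 types had too little signal to be tested, so the arrays say little about those cells. The members with the largest differences were Acta2 at -0.50 (adjusted p = 0.442), Lcn2 as given above, Ighm at 0.02 (adjusted p = 0.818), Slc4a2 at 0.11 (adjusted p = 0.787), Alas2 at -0.11 (adjusted p = 0.869), Cela1 at -0.24 (adjusted p = 0.376), Car3 at -0.15 (adjusted p = 0.843) and Apoa4 at -0.62 (adjusted p = 0.349). Other probe sets of Car3 stood at -2.12, -1.83 and -0.40, none of them called. The largest differences in hepatocyte and Kupffer cell markers were those of Tdo2 at 0.19 (adjusted p = 0.167) and Marco at 0.63 (adjusted p = 0.388).

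**Figure D5:**
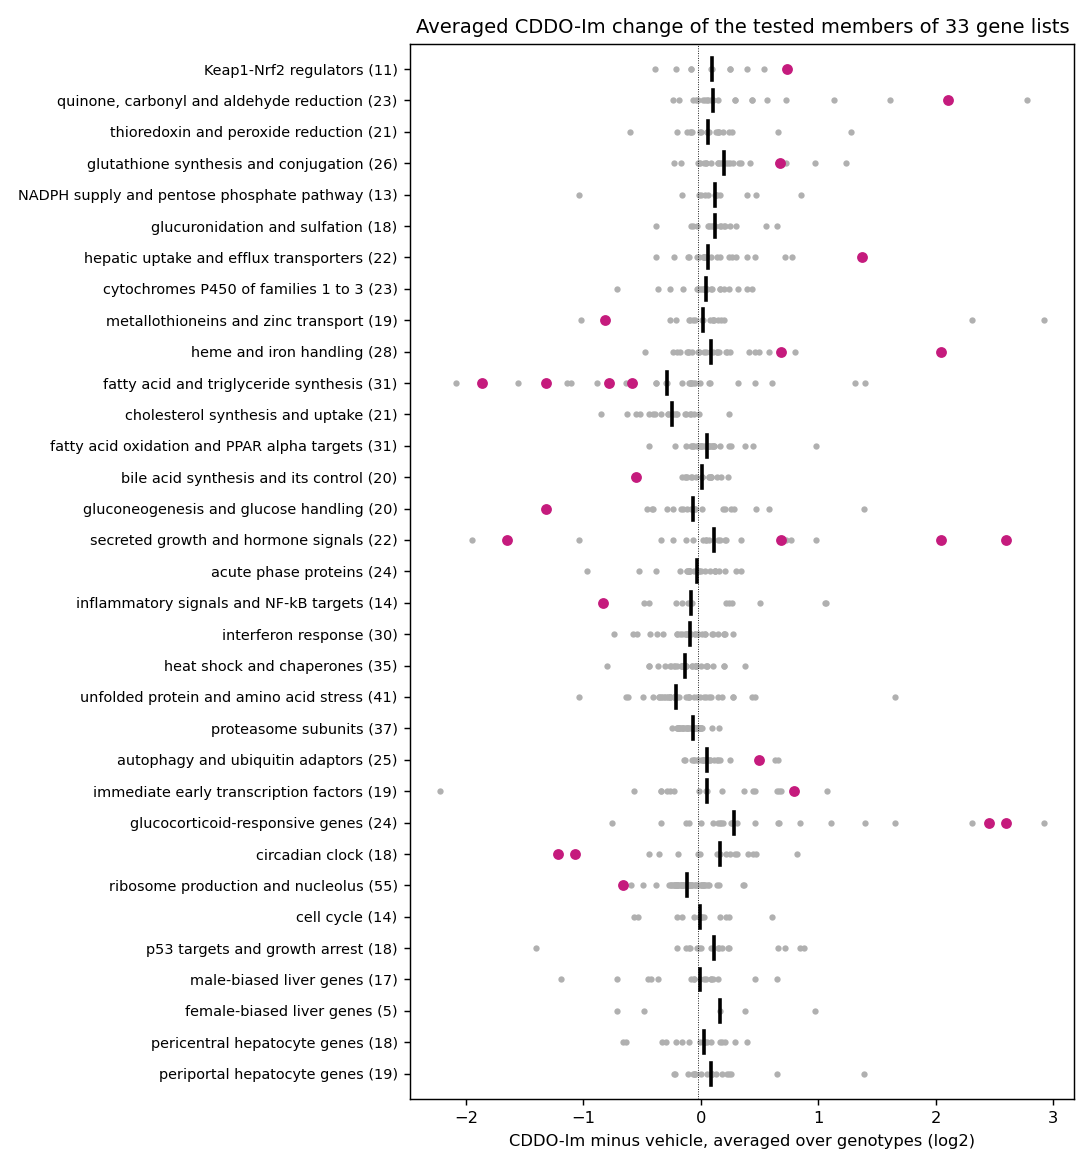
Averaged change after CDDO-Im (log2) of each tested member of 33 gene lists, with the number tested in brackets. Large points mark members called on average, black bars the list medians and the dotted line the median of all tested genes at -0.02, and 17 of the 33 lists hold no called member.

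The genes called by the interaction were, apart from Tsc22d1, not called on average by the additive model. The interaction was below 0 for 21 genes, which rose by 0.53 to 5.23 in WT livers and changed by -0.52 to 0.61 in CKO livers. For all 21 the CKO vehicle mean lay above the WT vehicle mean. Both vehicle means enter the interaction, so picking genes by it favours this order. The additive model counts a genotype difference as spread, and so holds back genes with an interaction from an averaged call. None of the 21 was called on average (0 of 21, where 1.51% of all tested genes were), with limma adjusted p-values from 0.0724 to 0.518. Picking genes by the interaction made this outcome likely beforehand, so it is a description and no test. Mt1 is an example, with signals of 9.62, 7.75 and 8.75 in the WT vehicle group against 13.08, 12.56 and 13.44 after the drug, and of 13.93, 13.12 and 13.72 in the CKO vehicle group against 14.53, 13.37 and 13.75 after the drug. The WT vehicle livers lay below all others, and the averaged change of 2.31 ± 0.68 (adjusted p = 0.109) did not pass the test. Gsta2, a glutathione transferase, likewise had a WT change of 2.30 ± 0.18 and a CKO change of 0.16 ± 0.18 (interaction adjusted p = 0.0138).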

How the data were processed

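Liver RNA of 12 mice was hybridised to 1 Affymetrix array each, and the deposited table of 45101 probe sets was used without further scaling. The submitters' processing notes name GCRMA 2.12.1 and R 2.7.0 as the tools behind the deposited log2 values, while the settings used were not given there. GCRMA pulls dim probe sets towards a common background, so small changes of weak genes are compressed and their spread is understated.

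Of the probe sets, 34945 named 1 gene in the platform annotation, 932 named several genes and were left out, and 64 controls were left out. The probe set with the highest mean signal stood for each of 18193 genes, and the 8338 genes above log2 5 on at least 3 arrays were tested. The averaged effect was fitted with limma 3.58.1 in R 4.3.3 (lmFit and eBayes) with treatment and genotype as additive terms (9 residual degrees of freedom), and the effect per genotype and the interaction with 4 group means. P-values were adjusted with the Benjamini-Hochberg method over all tested genes, at a threshold of 0.05. The scripts were tested on simulated data. With 3 arrays per group, their number limits the precision. Each group's arrays come from separate mice as far as the labels say, and no litter, batch or day is given.

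Named were the 15 called genes with the largest rises and the 15 with the largest falls whose treated and vehicle arrays did not overlap in either genotype, leaving out predicted genes. To these were added up to 2 called members per direction of each of 33 pathway and 11 cell type lists (or the member with the largest change), the 5 strongest interactions in each direction, genes with unequal change, and Keap1, Nfe2l2, Nqo1, Gclc, Gclm, Hmox1, Txnrd1 and Srxn1. Other genes were picked out after their values were seen, among them Kdr, Stab2, Clec4f, Hamp, Fkbp5, Tsc22d3, Per1, Clock and the uncalled lipid genes. The comparison and the lists were chosen with earlier results of these data known. Linear folds are given where both means were at least 5. Alternatives changed the scaling, the filter, the probe set, the spread model, array weights, the model terms, a replicate block and the arrays included.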

Additional observations from a re-analysis of the deposited data

Results flagged for a closer look

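The change after CDDO-Im differed between CKO and WT livers for 23 genes by limma's interaction test, at an adjusted p under 0.05 over all tested genes. Values are the CKO change minus the WT change on the log2 scale. The metal-binding Mt2 (-4.62) and Mt1 (-4.03) had the largest differences, followed by the quinone reductase Nqo1 (-3.68) and the sulfiredoxin Srxn1 (-3.59). Among genes of glutathione and thioredoxin supply, the difference was -2.15 for Gsta2, -1.54 for Gclc, -1.48 for Txnrd1 and -1.06 for Gsr. The reductases Akr1c19 and Cbr1 had -1.66 and -1.50, and Pgd and Ugdh, which supply NADPH and UDP-glucuronate, had -1.22 and -1.19. Pir, an iron-binding nuclear protein, had -1.55, Mafg, the small Maf partner of Nrf2, -0.98, and Gbe1, the glycogen branching enzyme, -1.10. The other genes with a smaller change in CKO livers were Ppfibp2 (-2.05), Abhd4 (-1.07), Ubap1 (-1.06), Dennd4c (-1.06), Ikbkg (-0.99) and Tent4b (-0.63).

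Differences above 0 were found for Tsc22d1 (1.70), whose fall was smaller in CKO livers, and for Pnpla3 (3.02). Pnpla3 was above background in WT vehicle livers alone, and with CKO vehicle livers already near background its difference does not measure an unequal response. Tsc22d1 was the 1 gene of the 23 that was also called on average.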

How the results depend on the processing

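Counts of called genes moved with the settings. The 192 results tried for named genes and for list counts gave 4966 comparisons. In 4158 of these a gene kept its side of the threshold or a list count stayed within 1.5 times. No named gene called on average changed sign (0). Reversal was not scored for list counts or uncalled genes, and some uncalled genes did change sign, as Cyp2b9 (-1.67 to 0.59). Leaving out 1 array at a time gave 14 to 84 higher and 13 to 97 lower genes on average, 67 to 165 and 39 to 153 in WT livers, 0 to 1 and 0 to 0 in CKO livers, and 0 to 7 and 2 to 24 for the interaction. Median centring gave 48 lower genes on average. In WT livers it moved the share of rises from 51.6% to 65.3%. Without the filter on low signal the averaged effect called 1 higher and 0 lower, WT livers 74 and 50, CKO livers 1 higher and the interaction 4 and 3. Without the filter but also without genes repeating a background value, chosen after seeing the data, the averaged effect called 48 and 63 and the interaction 4 higher. A stricter filter gave 6 higher for the interaction, the probe set of largest interquartile range 1, and eBayes with trend and robust settings 4. Array weights gave 7 and 38 for the interaction. Testing every probe set gave 279 and 247 in WT livers and 4 and 38 for the interaction. The averaged effect called 100 higher and 105 lower with 4 group means, and 17 and 30 with no genotype term. The 6 WT arrays alone gave 51 and 34. Without WT vehicle replicate 1 and CKO vehicle replicate 3 together, the averaged effect called 12 and 13, WT livers 96 and 67 and the interaction 1 and 4. The cause of these moves was not tested, except that leaving out arrays or groups leaves fewer samples.

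With the replicate block, the averaged effect called 63 higher and 61 lower, WT livers 75 and 39, CKO livers 1 and 1 and the interaction 1 and 2. Same-numbered vehicle and drug arrays of 1 genotype had deviations correlated from -0.07 to 0.09. Arrays of the same number and treatment across genotypes had 0.14, 0.13, 0.08 and 0.15, all above 0, and those differing in both -0.17 to 0.08. Not every pair passed 0.1 and the labels name no shared litter or day, so the numbers were not taken to pair the mice. GCRMA background limits what can be said of weak genes.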
